A study of Mus musculus with 6 samples.

Results

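The genes described here build the contacts between epithelial cells. They are the cadherins named Cdh with a number, the desmocollins (Dsc), the desmogleins (Dsg), the desmosome plaque genes Dsp, Jup and Pkp1 to Pkp4, the desmosome-associated membrane protein gene Perp, and the α- and δ-catenins. Members were found by their symbols, with no use of their values, which gave 44 of the 24063 gene symbols in the deposited files. RNA sequencing was performed on penile tumors of 3 SA mice, which carry the genotype PB-Cre+ Smad4L/L ApcL/L, and on normal penile epithelium of 3 wild type (WT) C57BL/6 mice, and mice of both groups were 5 months old. PB-Cre expresses Cre from an androgen-responsive promoter, so that recombination is directed to androgen-responsive epithelium, and the tumors arose without carcinogen. The question behind the comparison is how the transcripts of the tumors depart from those of the normal tissue. Nothing in the labels says that the WT mice carried PB-Cre or the floxed alleles, so that tumor formation, genotype and any difference in strain cannot be told apart. The labels give each library as a separate sample, and p-values measure the spread between those samples.

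In the adherens junctions of a stratified epithelium, classical cadherins bind the same cadherin on the neighboring cell. They hold the actin cytoskeleton through β-catenin and α-catenin, and p120 (Ctnnd1) keeps them at the cell surface. Desmosomes are built in parallel from desmogleins and desmocollins, whose tails bind plakoglobin (Jup) and plakophilins, and desmoplakin (Dsp) ties these to the keratin filaments. The desmosomal cadherins are known to be layered in the epidermis, with some members mainly in basal cells and others mainly in differentiating cells.

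Gene rows held between 23828283 and 110509147 counts per library, and SA tumor 3 had the most, 4.42-fold over the median of all others. Levels are given as CPM, which are read counts set to a common library size with the TMM method of edgeR, and a count of 3, taken as the smallest level the depth can show, equals 0.0244 to 0.137 CPM for counting error only. In whole-transcript counts, Smad4 was lower in SA tumors (log2 fold change -0.77) and Apc was higher (1.43). Reads over the deleted parts are not separated from the other exons in these counts, so that these values do not check the genotype. Markers of squamous epithelium were abundant in every library, with Krt5 at 3071, 3194 and 3587 CPM in the SA tumors and 7814, 7458 and 7569 CPM in the WT penises. The tissue also held RNA of other cell types, since smooth muscle markers summed to 1622 to 2132 CPM in WT penises and to 89.1 to 196 CPM in SA tumors. Hair sheath markers summed to 1390.4 to 3303 CPM in the SA tumors and to 26.4 to 35.8 CPM in the WT penises. In such bulk tissue, fewer cells of a type and less RNA per cell cannot be told apart.

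Of the 44 genes, 33 had enough counts to be tested by edgeR's quasi-likelihood F-test over all genes, with Benjamini-Hochberg adjustment. "Rose" and "fell" are used below where the adjusted p-value was under 0.01, whatever the fold change, and the study's thresholds also require a log2 fold change of 2 or more in either direction. By the first rule, 11 of the 33 rose in SA tumors, where 20.1% of all tested genes did, and 11 fell, where 17.5% did, so that 22 changed against a background of 37.6%. By the study's thresholds, 5 were higher (Cdh22, Ctnna2, Cdh17, Cdh11 and Cdh23) against a background of 9.41%, and 2 were lower (Cdh19 and Dsg4) against 3.59%, or 7 against 13.0% in both directions. These shares are over the genes with enough counts, and they are the background for every count of genes given below. Cdh22, Ctnna2 and Cdh17 were at or near 0 in WT penises and Cdh19 in SA tumors, so that they passed the filter on low counts through one group. The glmTreat test asks whether a change exceeds the threshold fold. It called 3 of the 33 higher and 0 lower, so that Cdh19 and Dsg4 were not called. Over all 16336 tested genes, it called 749 higher and 180 lower. The median log2 fold change was -0.03 over the 33 genes and 0.03 over all tested genes. Fits with 5 libraries gave 7 to 11 genes that rose and 10 to 12 that fell, and the 7 came without WT penis 2.

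**Figure D1:**
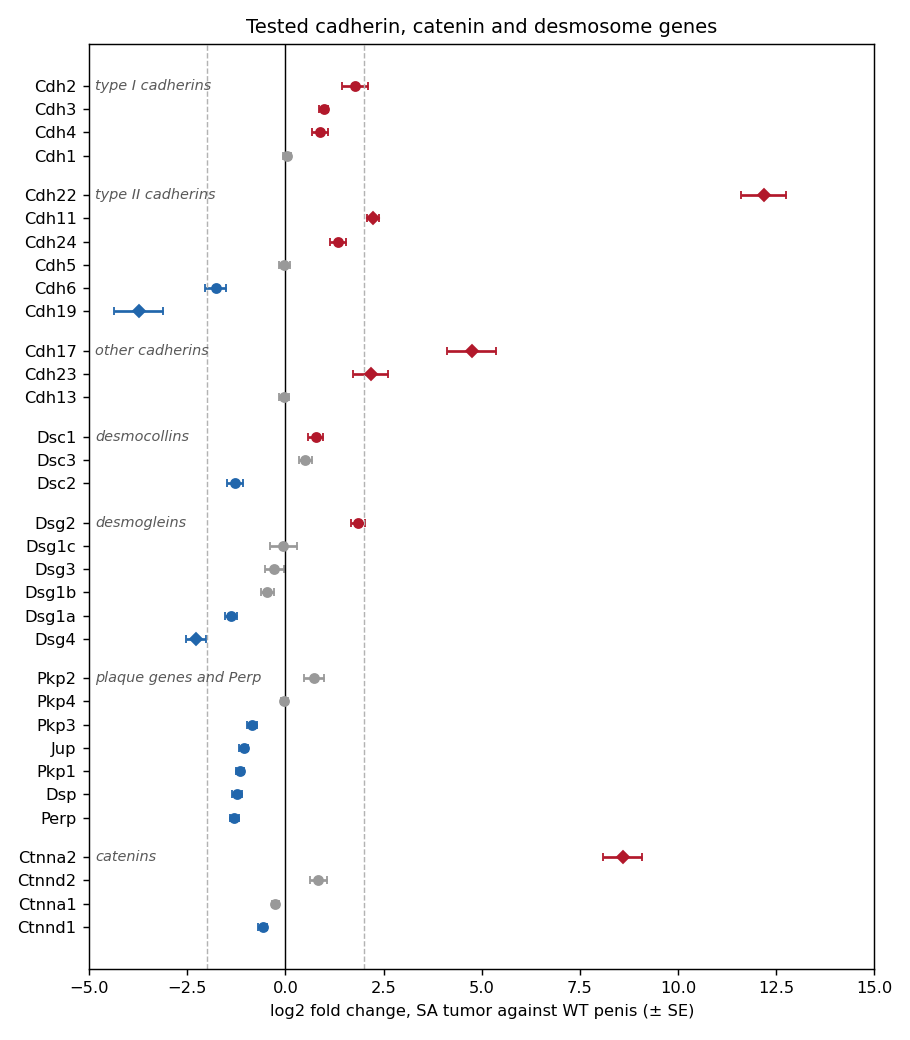
Difference between SA tumors and WT penises as log2 fold change, with its standard error, for the 33 tested genes by class. Red marks genes that rose and blue those that fell with adjusted p-values under 0.01, gray marks the others, and diamonds mark those also beyond the dashed lines at -2 and 2. Dsp, Jup, Pkp1, Pkp3 and Perp lie between -1.30 and -0.85, and Cdh1 lies at 0.04. The points of Cdh22 and Ctnna2 rest on WT counts at or near 0, so that their place depends on the prior count of the fit.

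Perp, a membrane protein gene, is counted with the desmosome plaque genes here and below. Of these 7 genes, Dsp, Jup, Pkp1, Pkp3 and Perp fell in SA tumors, by 1.81- to 2.46-fold, and Pkp2 and Pkp4 did not pass the test. These are 5 of 7, where 17.5% of all tested genes fell. The median of the 7 was -1.06. Desmoplakin, the linker to keratin, had the highest count of all 44 genes. Dsp (NM_023842, mm10 chromosome 13, 38151294 to 38198577) was measured at 3907, 3543 and 3623 CPM in the SA tumors and at 7906, 8889.5 and 9090.2 CPM in the WT penises (log2 fold change -1.23, SE 0.123, adjusted p = 7.75e-05). Every SA tumor was below every WT penis, and the 3 SA values lay within a narrow range.

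Plakoglobin, which binds both desmosomal and classical cadherins and is a close relative of β-catenin, was lower as well. Jup (NM_010593, chromosome 11, 100368856 to 100397839) stood at 1218, 1371 and 1169.7 CPM in SA tumors and at 2616, 2523 and 2672 CPM in WT penises (log2 fold change -1.06, SE 0.112, adjusted p = 0.000105). Perp (NM_022032, chromosome 10, 18845071 to 18857073), a p53- and p63-regulated membrane protein of desmosomes, showed the largest decrease of the plaque group, with 1858, 1744 and 1855 CPM in SA tumors against 4872, 4312 and 4229 CPM in WT penises (log2 fold change -1.30, SE 0.116, adjusted p = 4.26e-05). Both genes were lower in every SA tumor than in any WT penis. Groups did not overlap for 27 of the 33 tested genes, against a background of 63.4%.

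The plakophilins, which stabilize the plaque, were divided. Pkp1 (NM_019645, chromosome 1, 135871394 to 135919207), the main plakophilin of differentiating squamous cells, fell from 3151 ± 104 to 1408 ± 35.7 CPM (SD, n = 3 each; log2 fold change -1.16, SE 0.104, adjusted p = 4.36e-05). Pkp3, which is found throughout stratified epithelia, fell from 759 ± 12.0 to 420.2 ± 60.4 CPM (SD, n = 3 each; log2 fold change -0.85, SE 0.122, adjusted p = 0.000549). Both kept their direction and passed the test in all 6 fits that each left out a library. By contrast, Pkp4, a p120 relative found at several kinds of junction, was at 173, 158 and 149 CPM in SA tumors and 162, 163 and 164 CPM in WT penises (log2 fold change -0.03, SE 0.0914, adjusted p = 0.817). Its groups overlapped, and the sign of its difference depended on the scaling. Pkp2, the plakophilin of simple epithelia and heart, was scarce, at 3.88 ± 0.633 against 2.33 ± 0.491 CPM (SD, n = 3 each; log2 fold change 0.73, SE 0.253, adjusted p = 0.0387). Per transcript length (TPM), Pkp1 made up 63.9, 61.3 and 65.5% of the plakophilin total in SA tumors and 69.3, 70.6 and 71.0% in WT penises. It was thus the leading plakophilin in every library when each gene was represented by its transcript with the highest mean count. With transcript rows summed, which counts shared reads repeatedly, Pkp3 led in SA tumor 2, at 46.4% against 43.96% for Pkp1. Pkp1 led in all others.

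The start regions of Dsp and Jup are shown because these were the plaque gene with the highest count and its cadherin-binding partner. They hold the bases before the gene start in both RefSeq (GRCm38.p6, the assembly of mm10) and GENCODE M21, written 5′ to 3′. TCF/LEF cores (CTTTGAT or CTTTGAA, the motif bound by the partners of β-catenin) and the E-box CAGGTG, bound by Snail and Zeb factors, were searched on both strands and would be in capitals.
Dsp (chr13:38151044-38151293, plus strand): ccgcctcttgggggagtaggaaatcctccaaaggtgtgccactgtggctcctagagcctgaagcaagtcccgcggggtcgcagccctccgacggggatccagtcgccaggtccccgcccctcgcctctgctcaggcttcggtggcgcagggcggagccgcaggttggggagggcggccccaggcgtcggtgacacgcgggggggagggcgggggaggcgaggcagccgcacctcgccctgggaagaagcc
Jup (chr11:100397840-100398040, minus strand): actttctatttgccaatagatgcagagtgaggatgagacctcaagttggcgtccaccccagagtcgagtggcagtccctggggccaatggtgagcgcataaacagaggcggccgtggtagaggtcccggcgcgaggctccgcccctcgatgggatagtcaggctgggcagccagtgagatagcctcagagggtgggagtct
Neither stretch holds one of these motifs. Of 27025 genes with a RefSeq window of 250 bases before a start, 8.63% hold a TCF/LEF core and 19.4% the E-box. Of the 20 genes of the group with such a window, 1 holds a TCF/LEF core (Cdh7) and 3 hold the E-box (Cdh7, Ctnna2 and Pkp4).

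Dsp, Pkp1 and Perp were also lower relative to E-cadherin within each library, where scaling between libraries plays no part. The TPM ratio of Dsp to Cdh1 was 3.79, 3.73 and 4.28 in SA tumors and 8.96, 9.35 and 10.03 in WT penises. Likewise the ratio of Pkp1 to Cdh1 was 2.90, 3.26 and 3.48 against 7.38, 7.09 and 7.68, and that of Perp to Cdh1 was 9.10, 9.28 and 11.1 against 27.9, 22.9 and 23.6. None of these 3 ratios overlapped between the groups. No p-value is given for a ratio, because exact permutation of 3 against 3 libraries cannot go below 0.10. The ratios were chosen after the values had been seen.

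Against the basal keratin gene Krt5, whose protein desmoplakin anchors in basal cells, the plaque genes gave another picture. Krt5 itself fell (log2 fold change -1.21, SE 0.120, adjusted p = 7.35e-05). The TPM ratio of Dsp to Krt5 was 0.290, 0.253 and 0.231 in SA tumors and 0.231, 0.272 and 0.274 in WT penises, that of Jup was 0.173, 0.188 and 0.143 against 0.146, 0.148 and 0.154, and that of Perp was 0.698, 0.629 and 0.596 against 0.719, 0.666 and 0.644. The groups overlapped in these 3 ratios and in that of Pkp1, and Pkp3 alone of the 5 plaque genes that fell was higher relative to Krt5 in every SA tumor. The whole list of 7 basal squamous markers summed to 9706 to 12077 CPM in SA tumors and 21015 to 23033 CPM in WT penises, with 5 lower by the test and 0 higher. The 7 suprabasal markers summed to 12275 to 19048 CPM against 49779.5 to 55579 CPM, with 6 lower and 0 higher. Their part in the lower plaque levels was not tested.

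**Figure D2:**
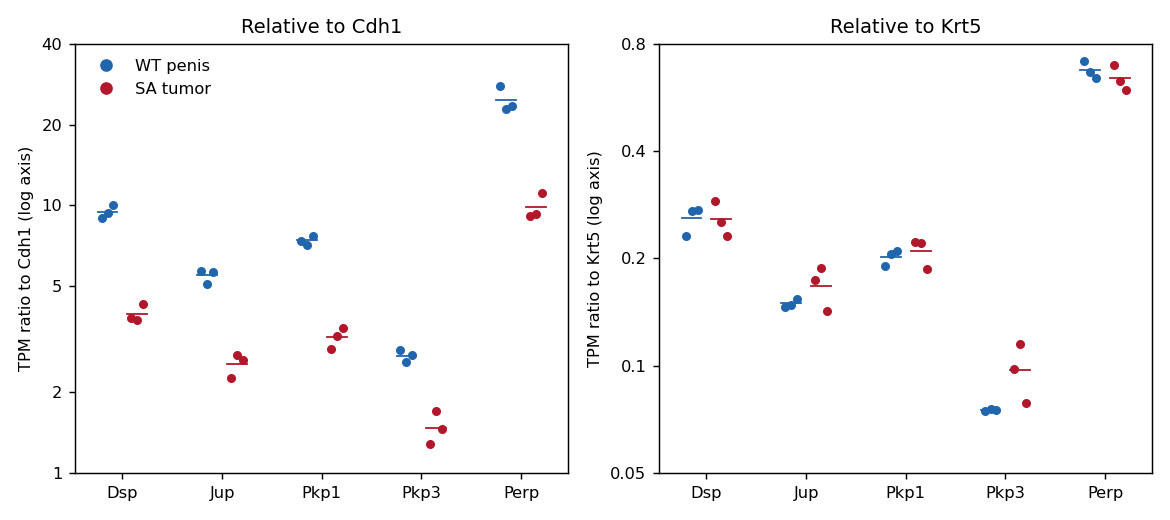
TPM of 5 plaque genes divided by that of Cdh1 (left) or Krt5 (right) in each library, on log axes. Points are libraries and lines are means of 3. The SA tumors lie below all WT penises relative to Cdh1, as in Dsp with 3.79, 3.73 and 4.28 against 8.96, 9.35 and 10.03. Relative to Krt5 the groups overlap, except for Pkp3, which is higher in every SA tumor.

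The desmosomal cadherins differed in makeup between the groups. Of the 9 genes, Dsg2 and Dsc1 rose, Dsg1a, Dsg4 and Dsc2 fell, and Dsg1b, Dsg1c, Dsg3 and Dsc3 did not pass the test. Over all tested genes, 20.1% rose and 17.5% fell. Dsg2, the desmoglein of simple epithelia and of the least differentiated cells of stratified ones, was at 195, 138 and 130.4 CPM in SA tumors and 36.2, 43.8 and 47.9 CPM in WT penises (log2 fold change 1.86, SE 0.179, adjusted p = 6.55e-05), a 3.62-fold difference with no overlap. Dsg1a, a desmoglein 1 gene of differentiating keratinocytes, was at 370.2, 259.6 and 259.7 CPM in SA tumors and at 711, 791 and 831 CPM in WT penises (log2 fold change -1.39, SE 0.159, adjusted p = 0.000160). Dsg4, known from the hair shaft and the upper epidermis, had 26.9, 14.0 and 16.2 CPM against 77.5, 96.6 and 103 CPM (log2 fold change -2.28, SE 0.249, adjusted p = 0.000173). It was the desmosome gene with the largest decrease. The difference passed both of the study's thresholds in each fit that left out a library, but glmTreat, which asks whether the change exceeds the threshold fold, did not call it.

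Dsg3, Dsg1b and Dsg1c did not pass the test. Dsg3, the main basal desmoglein and the target of pemphigus vulgaris antibodies, was measured at 474, 266 and 439 CPM in SA tumors and at 361, 524 and 555 CPM in WT penises, and the groups overlapped (log2 fold change -0.29, SE 0.242, adjusted p = 0.346). Dsg1b was at 192 ± 38.6 against 263 ± 23.4 CPM (SD, n = 3 each; log2 fold change -0.46, SE 0.157, adjusted p = 0.0375). Dsg1c was scarce, at 0.695 ± 0.106 and 0.697 ± 0.185 CPM. Dsg1a, Dsg1b and Dsg1c are close copies of one gene, and how reads that fit several of them were counted is not given in the sources used here, so that their split is uncertain. Per length, the TPM ratio of Dsg1a to Dsg1b was 1.03, 1.07 and 0.744 in SA tumors and 1.80, 1.68 and 1.90 in WT penises.

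Expressed as a share of all desmoglein TPM, Dsg2 took 11.9, 13.2 and 9.38% in the SA tumors and 2.02, 1.97 and 2.10% in the WT penises. The share of Dsg1a was 22.9, 25.3 and 19.0% against 40.3, 36.3 and 37.0%, and that of Dsg4 2.70, 2.21 and 1.92% against 7.12, 7.16 and 7.42%. Dsg3 held 40.2, 35.5 and 44.0% in SA tumors and 28.1, 32.9 and 33.9% in WT penises. The shares of Dsg1a rest on the uncertain split from its copies. The TPM ratio of Dsg2 to Dsg1a was 0.518, 0.521 and 0.493 in SA tumors and 0.04997, 0.0544 and 0.0566 in WT penises, and its spread within each group was small. Markers of simple epithelium, where Dsg2 is the usual desmoglein, moved with it, since 5 of the 6 on the list passed both thresholds upward and their sum was 579.5 to 1106 CPM against 44.5 to 47.6 CPM. The part of such cells in the rise of Dsg2 was not tested.

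Among the desmocollins, the balance between Dsc2 and the other two was different in the tumors. Dsc2, the most widespread desmocollin, was at 582, 389 and 686 CPM in SA tumors and at 1198, 1480.1 and 1365 CPM in WT penises (log2 fold change -1.29, SE 0.203, adjusted p = 0.000922). Dsc1, typical of the upper epidermal layers, was at 699, 461 and 459 CPM against 269, 335 and 345 CPM (log2 fold change 0.77, SE 0.186, adjusted p = 0.00829). Every SA tumor was above every WT penis for Dsc1 and below for Dsc2. The call for Dsc1 was not stable, since its adjusted p was 0.0115 without SA tumor 1 or 2, and 0.0326, 0.0226 and 0.0174 without WT penis 1, 2 and 3. Dsc3, the basal desmocollin, was at 795, 512 and 613 CPM in SA tumors and 428, 448 and 472 CPM in WT penises. Its difference missed the threshold (log2 fold change 0.51, SE 0.159, adjusted p = 0.0258), and passed it without SA tumor 2 (adjusted p = 0.00837). As a share of desmocollin TPM, Dsc2 held 67.0, 69.0 and 66.3% in WT penises and 31.4, 31.9 and 42.9% in SA tumors.

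**Figure D3:**
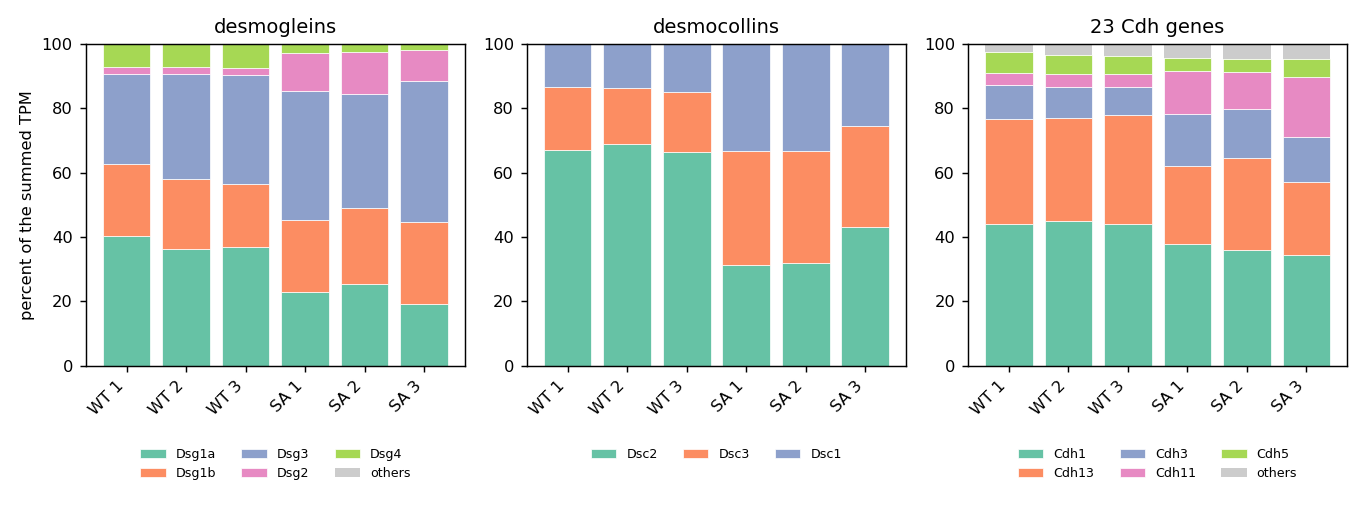
Share of each gene in the summed TPM of the desmogleins, the desmocollins and the 23 Cdh genes, as bars for each library (WT 1 to 3, SA 1 to 3). The Dsg2 part is 2.02, 1.97 and 2.10% in the WT penises and 11.9, 13.2 and 9.38% in the SA tumors, and the Dsc2 part narrows from 67.0, 69.0 and 66.3% to 31.4, 31.9 and 42.9%.

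All 9 desmosomal cadherin genes lie in one run on chromosome 18, with no other protein-coding gene of RefSeq between the first and the last. Their order is Dsc3, Dsc2, Dsc1, Dsg1c, Dsg1a, Dsg1b, Dsg4, Dsg3 and Dsg2. Genes that rose and genes that fell were interspersed along the run. This rests on Dsc1, whose call was kept in only 1 of the 6 fits that left out a library. Dsc2 fell and its neighbor Dsc1 rose, and Dsg4 fell by a log2 fold change of 2.28 while Dsg2, beyond Dsg3, rose by 1.86.

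**Figure D4:**
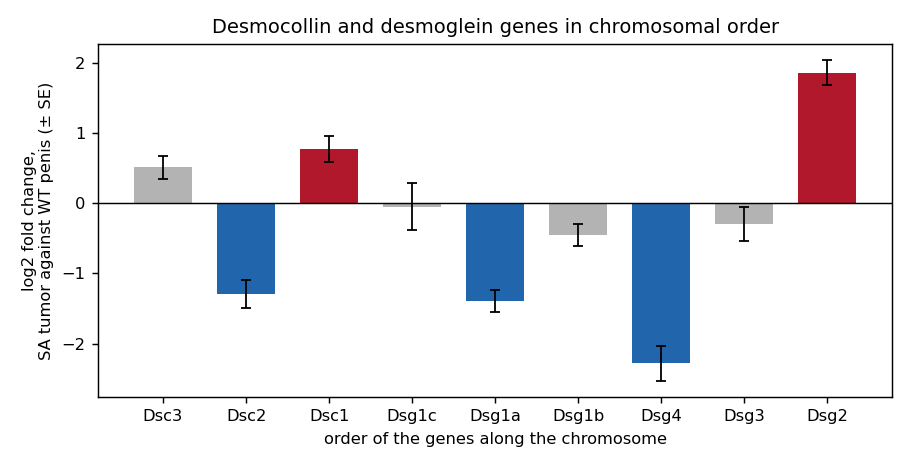
Log2 fold change (bars, with standard errors) of the 9 desmocollin and desmoglein genes in their order along the chromosome, without scale for distance. Red and blue bars passed the test upward and downward and gray bars did not. Rises at Dsc1 and Dsg2 flank falls at Dsg1a (-1.39) and Dsg4 (-2.28), but the call for Dsc1 was not stable when a library was left out.

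Of the type I classical cadherins tested, Cdh3, Cdh2 and Cdh4 rose and Cdh1 did not pass the test, where 20.1% of all tested genes rose. E-cadherin, the defining cadherin of epithelia, was the Cdh gene with the highest TPM in every library. Cdh1 (NM_009864, chromosome 8, 106603350 to 106670247) was measured at 474, 437 and 389 CPM in SA tumors and at 406, 437 and 417 CPM in WT penises (log2 fold change 0.04, SE 0.107, adjusted p = 0.748). Its groups overlapped, and with library totals in place of TMM the log2 fold change was 0.33 (adjusted p = 0.0248). P-cadherin, the cadherin of basal cells and of the hair matrix, lies 46439 bases upstream of it on chromosome 8. Cdh3 (NM_001037809, chromosome 8, 106510852 to 106556911) rose from 89.2, 86.9 and 78.0 CPM in WT penises to 183, 169 and 147 CPM in SA tumors (log2 fold change 0.97, SE 0.112, adjusted p = 0.000165), with no overlap and in all 6 fits that left out a library. The TPM ratio of Cdh3 to Cdh1 was 0.422, 0.423 and 0.412 in SA tumors and 0.240, 0.217 and 0.205 in WT penises. The 8 hair sheath markers on the list rose in the same tumors, while 5 of the 7 basal squamous markers fell and 0 rose. The part of hair sheath or basal cells in the Cdh3 level was not tested.

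N-cadherin and R-cadherin, both known from neural and mesenchymal cells, were scarce. Cdh2 was at 4.01, 7.18 and 7.07 CPM in SA tumors and 1.18, 1.84 and 2.37 CPM in WT penises (log2 fold change 1.77, SE 0.332, adjusted p = 0.00228). Cdh4 was at 4.79, 5.56 and 5.47 against 2.76, 2.50 and 3.28 CPM (log2 fold change 0.89, SE 0.205, adjusted p = 0.00641). Although the groups of both genes did not overlap, the calls were close to the threshold. For Cdh2 the adjusted p was 0.0106 without SA tumor 2, and 0.0105 and 0.0108 without WT penis 1 and 2. For Cdh4 it was 0.0215 and 0.0116 without SA tumor 2 and 3, and 0.0252, 0.0442 and 0.0144 without WT penis 1, 2 and 3. At 6.09 ± 1.80 CPM (SD, n = 3), Cdh2 stayed far under Cdh1 in the tumors, where it made up 0.305, 0.560 and 0.591% of the summed Cdh TPM.

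Type II cadherins pair in more selective ways and mark nerve, vessel and mesenchymal cells. Among the 6 tested, 3 rose (Cdh22, Cdh11 and Cdh24) and 2 fell (Cdh19 and Cdh6), where 20.1% and 17.5% of all tested genes did. Cdh22 had no read in any WT penis and 17.1, 12.5 and 11.6 CPM in the SA tumors, on average at least 110.58-fold the level of 3 counts per WT library. These levels rest on 459, 377 and 1434 reads, and the test gave an adjusted p of 1.23e-05. Cdh11 (NM_009866, chromosome 8, 102632095 to 102785493), the cadherin of mesenchyme and osteoblasts, rose from 32.5, 37.7 and 35.7 CPM to 159.6, 134 and 202 CPM (log2 fold change 2.23, SE 0.159, adjusted p = 1.34e-05), a 4.68-fold difference. It took 13.3, 11.5 and 18.6% of the summed Cdh TPM in SA tumors and 3.67, 4.05 and 3.94% in WT penises.

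Fibroblasts, which are mesenchymal cells, have a marker list of 7 genes. Of these 0 rose and 1 fell, and their sum was 1289.5 to 4802 CPM in SA tumors and 6219 to 6517 CPM in WT penises. Col1a1, the main fibrillar collagen gene, was at 329.9, 927 and 1123 CPM in SA tumors and 873, 919 and 1047 CPM in WT penises (log2 fold change -0.25, SE 0.410, adjusted p = 0.634). Pdgfra, a growth factor receptor gene of fibroblasts, was at 77.9, 174 and 267 CPM against 81.6, 81.5 and 81.2 CPM (log2 fold change 1.09, SE 0.404, adjusted p = 0.0604). Among the SA tumors, Cdh11 and every marker on this list, Col1a1 and Pdgfra included, were highest in SA tumor 3. The markers were all lowest in SA tumor 1, whereas Cdh11 was not. Relative to Col1a1, the TPM ratio of Cdh11 was 0.539, 0.161 and 0.2003 in SA tumors and 0.0414, 0.0457 and 0.0380 in WT penises. The part of fibroblasts in the Cdh11 level was not tested.

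Other type II members moved in both directions. Cdh24 rose from 4.89 ± 1.06 to 12.4 ± 1.20 CPM (SD, n = 3 each; log2 fold change 1.34, SE 0.1996, adjusted p = 0.000675). Cdh6, known from kidney and neural crest derivatives, fell from 8.72 ± 1.91 to 2.56 ± 0.792 CPM (SD, n = 3 each; log2 fold change -1.78, SE 0.276, adjusted p = 0.000831). Cdh19, a cadherin of Schwann cells, was at 0.0372, 0.0662 and 0.414 CPM in SA tumors and at 2.49, 2.67 and 4.33 CPM in WT penises (log2 fold change -3.74, SE 0.626, adjusted p = 0.00125). SA tumor 3 held most of the remaining Cdh19 reads, and without it the log2 fold change was -5.78. Schwann cell markers were lower beside it. On that list 5 of 7 fell and 1 rose, and the glial factor gene Sox10 was at 0.252 ± 0.164 against 6.13 ± 0.367 CPM (SD, n = 3 each). Their part in the decrease of Cdh19 was not tested.

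VE-cadherin, the cadherin of endothelium, did not pass the test. Cdh5 was at 44.6, 43.5 and 59.6 CPM in SA tumors and 54.6, 50.1 and 46.7 CPM in WT penises (log2 fold change -0.03, SE 0.141, adjusted p = 0.861), with overlapping groups and a sign that changed with the scaling. Among the 8 endothelial markers 4 fell, among them Pecam1, 0 rose and 4 did not pass, among them the receptor gene Kdr (log2 fold change 0.09), and their sum was 138 to 239 CPM against 286 to 393 CPM. Relative to Pecam1, the TPM ratio of Cdh5 was 0.949, 0.772 and 0.729 in SA tumors and 0.418, 0.443 and 0.433 in WT penises. The part of endothelial cells in the Cdh5 level was not tested.

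The remaining Cdh genes differ in structure from the classical ones. T-cadherin, which is held in the membrane by a lipid anchor and lacks a cytoplasmic tail, was abundant, and Cdh13 was at 158, 182 and 134 CPM in SA tumors and 157, 162 and 167 CPM in WT penises (log2 fold change -0.04, SE 0.122, adjusted p = 0.813), and its sign changed with the scaling. Cdh17, the liver-intestine cadherin, was at 1.11, 1.69 and 1.74 CPM against 0, 0.0334 and 0.137 CPM (log2 fold change 4.74, SE 0.628, adjusted p = 0.000353). It passed both thresholds in all 6 fits that left out a library, but its size was not well set, since the log2 fold change was 6.12 without WT penis 3 and 4.23 without WT penis 1. Cdh23, known from the tip links of hair cells and counted here on a noncoding transcript of the gene, was at 1.15, 3.05 and 2.41 CPM against 0.678, 0.434 and 0.364 CPM (log2 fold change 2.17, SE 0.442, adjusted p = 0.00350). The Cdh23 call was lost without SA tumor 2 (adjusted p = 0.0131) and without WT penis 2 or 3 (0.0197 and 0.0176). Both were minor parts of the Cdh total, at 0.114, 0.177 and 0.195% for Cdh17 and 0.0361, 0.0981 and 0.0833% for Cdh23 in the SA tumors.

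**Figure D5:**
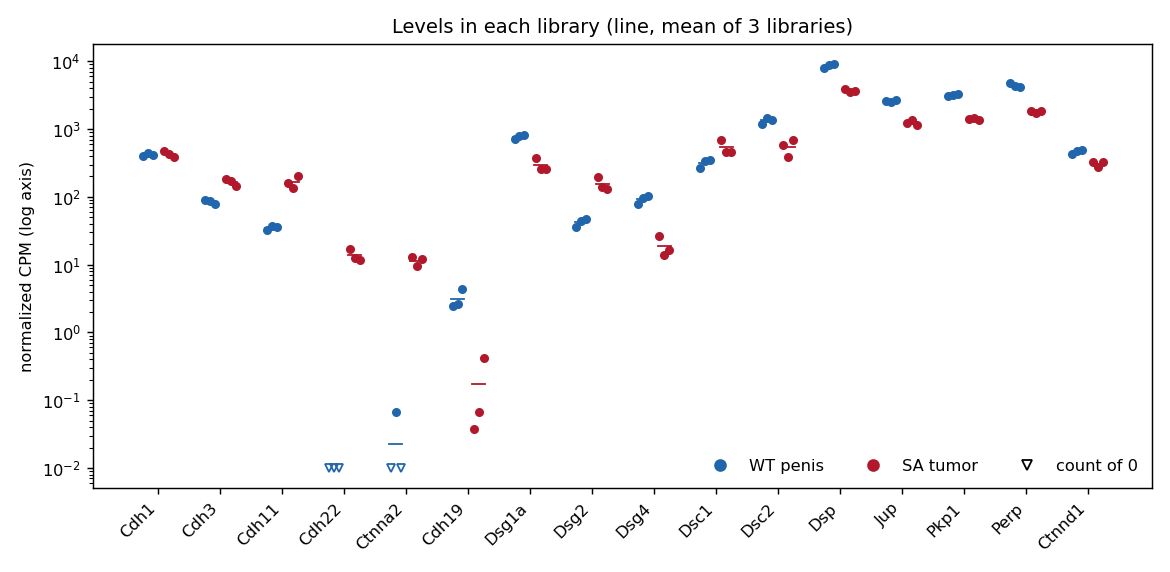
TMM-normalized CPM of 16 genes in each library on a log axis, with a line at the mean of each group of 3 and open triangles for a count of 0. Cdh22 and Ctnna2 are at or near 0 in the WT penises and at 9.40 to 17.1 CPM in SA tumors, while the 2 groups share a range for Cdh1.

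Of the catenins, the α-catenin gene of neurons was nearly absent from WT penises and present in every SA tumor. Ctnna2 (NM_001109764, chromosome 6, 76881637 to 77979815), known as αN-catenin, had 12.9, 9.40 and 12.1 CPM in SA tumors and 2 reads in all WT penises together. The ratio of pooled levels was 434-fold, with an exact 95% counting interval of 120.1 to 3589. The test gave an adjusted p of 4.85e-06. Nevertheless, Ctnna2 made up only 3.18, 2.29 and 3.06% of α-catenin TPM in the SA tumors. Neuronal markers moved with it, since 4 of the 5 tested rose and 1 fell, and Tubb3 was at 174, 143 and 113 CPM against 6.69, 5.01 and 4.24 CPM and Snap25 at 6.80, 4.90 and 3.91 CPM against 0.0904, 0.0334 and 0.0456 CPM. The pan-neuronal marker Rbfox3 was the one that fell. The part of neurons in these levels was not tested.

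The start region of Ctnna2 is shown as that of the catenin gene that was nearly silent in WT penises. It holds 1 E-box, read as CACCTG on this strand and set in capitals.
Ctnna2 (chr6:77979816-77979917, minus strand): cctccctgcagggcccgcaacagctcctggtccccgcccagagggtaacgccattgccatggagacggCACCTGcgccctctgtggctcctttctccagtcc

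The catenins of epithelial adherens junctions differed less. Ctnna1, the α-catenin of epithelia, was at 349, 358 and 340.3 CPM in SA tumors and 407, 421 and 421 CPM in WT penises. Its groups did not overlap, but its difference missed the threshold (log2 fold change -0.26, SE 0.0888, adjusted p = 0.0392) and took the other sign with library totals. p120, which keeps cadherins at the cell surface, fell, with Ctnnd1 at 324, 280.0 and 328 CPM against 423, 473 and 495 CPM (log2 fold change -0.58, SE 0.111, adjusted p = 0.00255). That call was lost without WT penis 2 (adjusted p = 0.0132) and with library totals (log2 fold change -0.29, adjusted p = 0.0564). Ctnnd2, or δ-catenin, a p120 relative best known from brain, was at 47.1, 42.7 and 25.6 CPM against 20.8, 20.9 and 22.6 CPM (log2 fold change 0.84, SE 0.212, adjusted p = 0.0104). It missed the threshold by a narrow margin and passed it without SA tumor 3 (log2 fold change 1.07, adjusted p = 0.000156).

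β-catenin, which was not among the 44 genes, moved against plakoglobin. Ctnnb1 was at 1758, 1403 and 1252 CPM in SA tumors and at 954, 944 and 959 CPM in WT penises (log2 fold change 0.63, SE 0.139, adjusted p = 0.00536). Within a library, the TPM ratio of Jup to Ctnnb1 was 0.501, 0.706 and 0.676 in SA tumors and 1.98, 1.93 and 2.01 in WT penises. In every WT penis the plakoglobin transcript was thus the more abundant of the pair per length, and in every SA tumor the β-catenin transcript was. Relative to Cdh1, the TPM ratio of Ctnnb1 was 4.52, 3.91 and 3.92 against 2.86, 2.63 and 2.80.

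The remaining 11 genes had too few reads to be tested, with no more than 0.683 CPM in any library. They are Cdh7, Cdh8, Cdh9, Cdh10, Cdh12, Cdh15, Cdh16, Cdh18, Cdh20, Cdh26 and Ctnna3. Without the filter on low counts, edgeR gave an adjusted p of 0.00510 for Cdh20 (0.310 against 0.0263 CPM on average in SA tumors and WT penises) and of 0.00844 for Ctnna3 (0.0232 against 0.388 CPM). DESeq2 gave 0.0208 and 0.00630 for them. M-cadherin, Cdh15, the cadherin of skeletal muscle precursors, had between 0 and 7 reads in each library.

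Genes that work with these junctions were read from lists that are not part of the 44. Over all tested genes, 20.1% rose and 17.5% fell, and 9.41% were higher and 3.59% lower by the study's thresholds. Of 19 adherens junction partners, 4 rose and 8 fell, and 0 passed the study's thresholds. The nectin gene Pvrl3 rose from 5.37 ± 0.772 to 19.9 ± 1.67 CPM (SD, n = 3 each; log2 fold change 1.89, SE 0.158, adjusted p = 2.99e-05), while Pvrl4, the nectin mutated in a skin and hair disorder, fell (log2 fold change -1.08, SE 0.105, adjusted p = 6.52e-05). Of the 7 genes of cornified junctions and their proteases, 1 rose and 5 fell. Klk7, a protease that cuts corneodesmosomes, rose (log2 fold change 2.56, SE 0.318, adjusted p = 0.000506), and its inhibitor gene Spink5 fell (log2 fold change -2.91, SE 0.138, adjusted p = 2.43e-06), as did the protease gene Klk14 (log2 fold change -2.75, SE 0.140, adjusted p = 3.03e-06). Desmoplakin's relatives Evpl and Ppl, which join desmosomes to the cornified envelope, had log2 fold changes of -1.52 and -1.54, and corneodesmosin (Cdsn) of -1.62.

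Of 8 proteases known to cut cadherins, 4 rose and 3 fell, where 20.1% and 17.5% of all tested genes did. The matrix metalloproteinase genes Mmp9, Mmp3 and Mmp7 passed the study's thresholds, with log2 fold changes of 6.33, 5.95 and 5.69. Adam10, the sheddase of E-cadherin and desmoglein 2, had 0.78 and Adam17 -1.15. Among 6 repressors of Cdh1 transcription, 2 rose and 0 fell. Snai1 was at 14.3, 27.5 and 32.5 CPM in SA tumors and 6.87, 4.07 and 4.56 CPM in WT penises (log2 fold change 2.27, SE 0.337, adjusted p = 0.000843), and Twist2 had a log2 fold change of 0.97, while Snai2, Zeb1, Zeb2 and Twist1 did not pass. A list of 9 regulators of epithelial identity held Grhl1, Grhl2, Grhl3, Ovol1, Ovol2, Trp63, Klf4, Esrp1 and Esrp2, which do not all activate transcription. Of these 0 rose and 6 fell, Klf4 by the most (log2 fold change -1.05, SE 0.201, adjusted p = 0.00256). The part of these repressors and regulators in the Cdh1 level, which overlapped between the groups in CPM, was not tested.

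Distant relatives of the cadherins formed the longest list. Of 27 protocadherin, Fat, Dachsous, flamingo, calsyntenin and Cdhr genes, 23 were tested, 9 rose and 3 fell, with 6 higher and 0 lower by both thresholds. Over all tested genes, 20.1% rose and 17.5% fell, with 9.41% higher and 3.59% lower by both thresholds. The largest differences among those with a mean of at least 100 counts were in Clstn3 (log2 fold change 5.83), Pcdh19 (3.58) and Celsr3 (3.32). The list had a median log2 fold change of 0.68, against 0.03 for all tested genes.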

How the data were processed

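Total RNA of penile tumors from 3 SA mice and of penile epithelium from 3 WT mice was sequenced in pairs of 76 bases with a stranded protocol. TopHat alignments to mm10 were counted by the authors with HTSeq, and raw counts per RefSeq transcript were deposited. FPKM and TPM values deposited by the authors stand beside the counts. TPM was used only for ratios and shares within a library, and FPKM was not used. A symbol with several rows was represented by the row with the highest mean count. Counts of 16336 genes were analysed with edgeR 4.0.16 in R 4.3.3 (filterByExpr with a minimum count of 10 and a total of 15, TMM, robust quasi-likelihood F-test, Benjamini-Hochberg adjustment over all genes). The standard error was the log2 fold change divided by the square root of F. The thresholds were the study's, 0.01 for the adjusted p-value and 2 for the size of the log2 fold change. DESeq2 1.42.0, the tool of the study, limma-voom (limma 3.58.1), other scalings and filters, glmTreat, the replicate block, other transcript rows, thinning of SA tumor 3 and leaving out each library were alternatives.

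The rule on symbols used no measured value, but this gene group and the lists were chosen with earlier results of these data known. No set test was run. Values in every library are given for genes past both thresholds with a mean of at least 100 counts, for the most abundant gene of a class and for the main junction genes of squamous epithelium. Junction partners past both thresholds with a mean of at least 100 counts are named, limited to the largest changes in each list and direction. Others were named after their values were seen. Simulated data had a log2 fold change of 3 set for 200 genes. By both thresholds, edgeR recovered 190 of the 194 that passed the filter among 16336 genes (97.9%) and called 0 unchanged genes. At any fold, it called 3 unchanged genes. Most changes described here are smaller than the simulated one, so that the simulation does not show how well they are found. Gene positions and start regions are from RefSeq for GRCm38.p6, where a start region was found for 20 of the 44 genes.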

Additional observations from a re-analysis of the deposited data

How the results depend on the processing

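With glmTreat, which tests against the fold-change threshold itself, 3 genes of the 44 were higher and 0 lower, and 6 of the partner genes were higher. With a filter at a mean of 50 counts, 1 was lower past both thresholds, since fewer genes were tested. Leaving out a library gave 4 to 5 genes higher and 2 to 3 lower past both thresholds, 7 to 11 higher and 10 to 12 lower at any fold, and 10 to 13 partner genes higher and 2 lower. Library totals in place of TMM moved the median of all genes by 0.286, so that fold changes are relative to that choice, and gave 14 genes higher and 10 lower at any fold. Residuals of samples with the same replicate number correlated at -0.135, -0.105 and 0.024 across genes, and those of other pairs at -0.145 to 0.211. So few correlations, from residuals centered on groups of 3, cannot show whether replicate numbers pair the samples. With the replicate block, 9 genes were higher and 11 lower at any fold, and Dsc1 (adjusted p = 0.0238) and Cdh4 (0.0197) were lost. Summing transcript rows, which counts shared reads repeatedly, gave Dsc2 shares of 21.6% in SA tumors and 50.7% in WT penises, and a Cdh11 share of 3.54% in WT penises.

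Over 33 genes and 18 alternatives, 544 of 591 fits kept the direction and the side of the threshold. All 18 changes of sign were in genes that had not passed the test. With library totals the log2 fold changes were 0.25 for Cdh13, 0.26 for Cdh5, 0.03 for Ctnna1, 0.24 for Dsg1c and 0.26 for Pkp4. With upper quartile scaling they were 0.02 for Cdh13, 0.03 for Cdh5, 0.01 for Dsg1c and 0.03 for Pkp4, and with the replicate block 0.01 for Dsg1c. Without single libraries they ranged from -0.03 to 0.12 for Cdh1, -0.15 to 0.07 for Cdh13, -0.19 to 0.05 for Cdh5, -0.25 to 0.14 for Dsg1c and -0.09 to 0.02 for Pkp4. The cause was not tested. Depth limits the 11 untested genes.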
